A study of Mus musculus with 9 samples.

Results

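Macrophages and other myeloid cells made up a small part of the cells of mouse forelimb buds: 371 of the 83167 cells that passed the gates on quality, or 0.446%, taken from 133086 barcodes in 9 libraries. They were selected on their own transcripts. A cell counted as a member when it held over 1000 genes, under 200000 unique molecular identifiers (UMIs, each standing for 1 captured transcript) and under 10% mitochondrial UMIs, when at least 4 of the 9 genes Tyrobp, Fcer1g, C1qa, C1qb, C1qc, Lyz2, Cx3cr1, Spi1 and Mpo had a UMI, and when these 9 genes together had more UMIs than Prrx1, a gene of the limb mesenchyme. The levels of these genes are therefore given as a description.

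Per the study's methods, each library held the cells of a pair of forelimb buds at E10.75 (37 to 39 somites), dissociated with collagenase D and processed with a droplet kit that counts transcripts at their 3′ ends. There were 3 libraries of wild-type (Wt) embryos, 3 of embryos homozygous for EC1CRM8Δ (E1C8Δ/Δ, called E1C8) and 3 homozygous for EC1CRM5Δ (E1C5Δ/Δ, called E1C5), all on a Swiss Albino background. Both alleles remove enhancers from the landscape of Grem1, whose secreted product blocks bone morphogenetic proteins (BMPs), and both lead to limbs that lack a digit. The deletions are present in every cell of the mutant embryos, so that any difference in myeloid cells could arise in them or outside them, and these cannot be told apart here.

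In the early embryo, macrophages arise from progenitors of the yolk sac and later of the fetal liver, enter tissues with the circulation and take up dying cells. They are known for complement component C1q, the fractalkine receptor Cx3cr1 and the receptor Csf1r, through which the growth factors Csf1 and Il34 keep them alive. Tyrobp and Fcer1g encode adaptors that pass signals from receptors on the cell surface to the kinase Syk, and Spi1 encodes PU.1, a transcription factor that myeloid cells depend on. Mpo encodes myeloperoxidase, a granule enzyme that is typical of progenitors of granulocytes and monocytes.

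Because the cells were chosen on genes that PU.1 is known to regulate, promoters of the genes were searched for the core of its motif, GAGGAA, on both strands (TTCCTC on the other). Of the 9 genes, 6 had a promoter in the RefSeq table for GRCm38.p6, from 250 bases before to 50 bases after the start of transcription, and 3 of these 6 held the motif, against 28.3% of 32851 promoters of the same length. The 3 promoters are shown with the matches in capitals, read 5′ to 3′ on the strand of the gene, to show where the letters lie in a gene of the C1q cluster and in Mpo, whose UMIs separate the cells into classes further on.
C1qb promoter, chr4:136886151-136886450, minus strand: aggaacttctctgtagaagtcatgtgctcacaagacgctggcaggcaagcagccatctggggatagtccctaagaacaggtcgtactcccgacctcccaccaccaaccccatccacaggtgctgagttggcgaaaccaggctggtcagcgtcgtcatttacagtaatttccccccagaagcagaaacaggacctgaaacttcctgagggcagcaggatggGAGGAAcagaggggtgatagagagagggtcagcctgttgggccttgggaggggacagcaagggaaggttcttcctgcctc
C1qc promoter, chr4:136892865-136893164, minus strand: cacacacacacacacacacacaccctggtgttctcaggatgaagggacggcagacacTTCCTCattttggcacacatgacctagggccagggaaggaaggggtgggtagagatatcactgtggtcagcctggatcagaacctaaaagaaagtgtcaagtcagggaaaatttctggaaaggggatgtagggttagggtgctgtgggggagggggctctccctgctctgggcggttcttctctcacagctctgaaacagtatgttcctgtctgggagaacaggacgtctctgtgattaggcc
Mpo promoter, chr11:87793534-87793833, plus strand: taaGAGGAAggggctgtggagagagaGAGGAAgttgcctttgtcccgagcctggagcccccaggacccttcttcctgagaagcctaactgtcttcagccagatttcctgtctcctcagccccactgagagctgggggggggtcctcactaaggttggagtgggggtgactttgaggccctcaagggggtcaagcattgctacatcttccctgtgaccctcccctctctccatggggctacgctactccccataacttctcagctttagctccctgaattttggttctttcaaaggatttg
The first match began 30 bases before the start in C1qb, 193 bases before it in C1qc and 247 bases before it in Mpo, which held 2 matches. No match was found in these windows of Fcer1g, Cx3cr1 and Lyz2. A match describes the letters and was not tested as a site of binding.

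The libraries differed widely in depth and in the number of members. Between 1148 and 15751 cells per library passed the gates, from totals of 26620760 to 500559729 UMIs. The members held a median of 37003 UMIs and 5884 genes per cell, against 17268.5 UMIs and 4140.5 genes in the other cells. Wt libraries 1 to 3 held 50, 71 and 9 members, E1C8 libraries 1, 88 and 55, and E1C5 libraries 47, 9 and 41. Wt replicate 3, E1C8 replicate 1 and E1C5 replicate 2 had fewer than 10 members and stayed out of comparisons of expression, which left 6 libraries, 2 per genotype. No member shared its barcode with a member of another library, 15 shared it with any cell of another library, and at most 0.652% of the cells of a library shared barcodes with one other. Embryos of both sexes were used. Of the 6 libraries, E1C8 replicate 2, E1C5 replicate 1 and E1C5 replicate 3 had Xist, a transcript of female cells, at 643.6 to 923 CPM (counts per 1000000 UMIs of the summed cells). The other 3 had Y-linked transcripts at 101 to 134 CPM, and Wt replicate 1 and E1C8 replicate 3 among them also had 31.6 and 9.72 CPM of Xist, against 0.207 CPM in Wt replicate 2. Whether cells of more than 1 embryo entered these libraries was not tested. Sex and genotype were thus partly tied, with no female library in Wt.

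Tyrobp was found in 360 of the 371 members (97.0%) with a median of 26 UMIs per cell, and in 0.38% of the other cells. Fcer1g was found in 96.8% of members and 2.06% of other cells, and Spi1 in 91.4% and 0.3%. Lyz2, which encodes lysozyme, reached 86.5% of members, and C1qb 74.7%, followed by Cx3cr1 with 70.9%, C1qc with 68.2% and C1qa with 60.7%. Mpo was the least widespread of the 9 genes, with UMIs in 45.3% of members and 0.13% of other cells. A few UMIs of the 9 genes thus reached other cells, where free RNA and true expression cannot be told apart.

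The edge of the selection was thin. A median member had 125 UMIs of the 9 genes, and 66 members had UMIs of all 9 genes. The 43 members with exactly 4 of the genes had a median of 9 such UMIs, the same median as the 45 cells just outside with 3 genes. Another 19 cells held at least 4 genes but more UMIs of Prrx1, with medians of 10 and 22. Prrx1 was absent from 166 members, while 41 members had more than 10 UMIs of it. Those 41 cells held a median of 78418 UMIs, and 17 of them were called doublets, that is, droplets that may hold more than a single cell.

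The label was checked against markers that the selection did not use. Of the macrophage markers Csf1r, Adgre1 (F4/80), Cd68, Mrc1 (the mannose receptor) and Ptprc (CD45), 276 members (74.4%) had at least 2 and 46 had none. Csf1r was found in 73.9% of members, Ptprc in 73.1%, Cd68 in 65.5%, Mrc1 in 46.9% and Adgre1 in 46.4%, against 0.29%, 0.18%, 8.32%, 0.18% and 0.04% of the other cells. Of the progenitor markers other than Mpo, Prtn3 (proteinase 3) was found in 52.8% of members and in 11.2% of other cells, while Elane was found in 22 members, Ms4a3 in 15 and Ctsg in 2. No member held 2 or more of the lymphoid markers Cd3e, Cd79a, Il7r and Rag1, and 9 held 2 or more of the mast cell markers Cpa3, Hdc, Ms4a2 and Fcer1a. Cd79b, a lymphoid gene outside these markers, was however found in 207 members. Ighm, an immunoglobulin gene that was not on the list of lymphoid genes, was found in 240 members. Of the full list of 10 lymphoid genes, 146 members had none and 1 had at least 3. Markers of other cells were present as well: 115 members had UMIs of at least 2 of 9 endothelial markers, 194 of at least 2 of 5 markers of limb mesenchyme, and 22 of at least 2 of 8 megakaryocyte markers. Hbb-y, an embryonic globin, was found in 99.2% of members and 98.0% of other cells.

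Summed over the members of each library, the selecting genes varied by library. Tyrobp stood at 661 and 925 CPM in Wt replicates 1 and 2, at 809.8 and 722 CPM in E1C8 replicates 2 and 3 and at 954 and 642 CPM in E1C5 replicates 1 and 3. Spi1 was the steadiest of the 9 genes, between 244 and 311 CPM. C1qb varied from 343 CPM in Wt replicate 1 to 987 CPM in E1C5 replicate 1, Lyz2 from 152 CPM in E1C5 replicate 3 to 1203 CPM in E1C5 replicate 1, and Mpo from 110.5 CPM in E1C5 replicate 3 to 719.8 CPM in Wt replicate 1. The genotypes overlapped for Tyrobp, Spi1, C1qb and Mpo, while both E1C8 libraries lay just above both Wt libraries for Lyz2 and just below both for Cx3cr1. In the other cells none of the 9 genes rose above 3.16 CPM.

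Genes that the selection did not use set these cells far apart from the rest of the limb bud. Set against the summed UMIs of all other cells in the same library, 3578 of 15706 genes tested were higher in members (22.8%) and 5824 were lower (37.1%) by edgeR's quasi-likelihood test with library as a block. These counts describe the contrast on which the cells were chosen, so nothing is read from them as a test. A gene nearly absent from the other cells passed the filter on low counts only through the members and had to be higher, which bears on all counts of lists given here. The median log2 fold change over all genes tested was −0.28, to be kept in mind for every fold change that follows. Among the genes with the largest excess were chemokines, namely Ccl2 with a median of 169.9 CPM in members and at most 0.15 CPM in other cells, Ccl3 with 397 against at most 0.41 CPM, and Ccl4 with 172 against at most 0.81 CPM. Receptors followed: the Fc receptors Fcgr1 (147 against at most 0.077 CPM) and Fcgr3 (138 against at most 0.101 CPM), Mrc1 (254 against at most 0.117 CPM) and Csf1r (187 against at most 0.192 CPM). The cysteine protease Ctss, the surface proteins Cd52, Ptprc and Ly86, and the GTPase Rac2 belonged to the same group, and so did Ms4a6b, Ms4a6c, Aif1, Lst1, F13a1, Arhgap30, Ifi202b and Ighm. Ifi202b and the Ms4a6 genes belong to families with close copies, whose reads may have been shared out between them. All 20 genes were higher in members in 6 of 6 libraries, with log2 fold changes of 9.23 to 11.82.

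**Figure D1:**
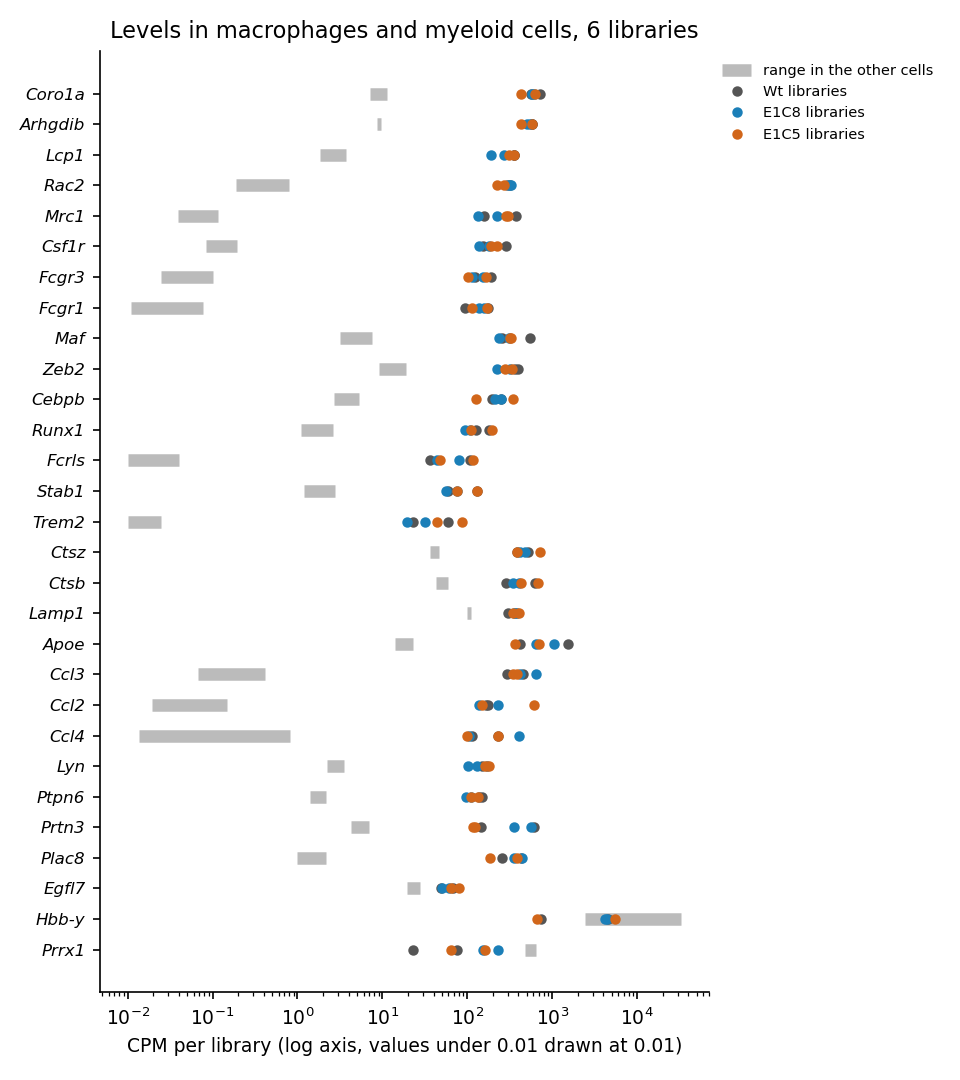
Levels of named genes in CPM on a log axis, each dot a library's macrophages and myeloid cells (6 libraries, coloured by genotype) and each gray bar the range over all other cells of the same 6 libraries. Leukocyte, macrophage and chemokine genes lay far above the gray bars, Prrx1 lay below its bar, and Hbb-y lay within or below it.

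Genes shared by leukocytes were higher in members throughout: 15 of the 15 tested of this list, with a median log2 fold change of 7.89. Coro1a and Lcp1, which bind actin, stood at 432 to 718 and 189 to 355 CPM, Arhgdib, an inhibitor of GTPase activation, at 433 to 584 CPM and Rac2 at 222 to 325 CPM. All 15 surface receptors of macrophages that were tested were higher as well, with a median of 10.22. Of 14 transcription factors of myeloid cells 12 were higher and 1 was lower. Maf (236 to 544 CPM), Zeb2 (224 to 396 CPM), Cebpb (126 to 344 CPM) and Runx1 (92.7 to 196 CPM), factors of macrophages and of blood cell formation, led this list. Id3, an inhibitor of helix-loop-helix factors and a BMP target, was the lower member, at 37.4 to 149 CPM against 209 to 388 CPM in the other cells. Irf8, a factor that macrophages need, stood at 98.7 to 166 CPM against at most 0.49 CPM.

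The genes for uptake and breakdown of other cells were also high. Of 13 genes for uptake tested, 10 were higher and none lower, among them Mrc1 and the scavenger receptor Stab1 at 56.2 to 132 CPM, Trem2 at 19.5 to 87.2 CPM and Msr1 at 13.6 to 129 CPM. Mertk, a receptor for dying cells, was close in both, at 13.5 to 33.9 CPM in members and 17.7 to 23.8 CPM in other cells. Of 16 lysosomal genes 14 were higher and 1 lower. Cathepsins Ctsz (382 to 718 CPM) and Ctsb (287 to 682 CPM), the membrane protein Lamp1 (305 to 409 CPM) and the cholesterol carrier Npc2 (221 to 350 CPM) led this list, while Cd63 was the lower gene. Of 11 genes of lipid and iron handling 9 were higher, including the ferritin subunits Ftl1 (3659 to 6179 CPM) and Fth1 (3140 to 6954 CPM) and the lipid carrier Apoe (366 to 1515 CPM). Fabp5, a carrier of fatty acids, was lower, at 301 to 539 CPM against 475 to 784 CPM.

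Of 18 cytokines and chemokines tested, 16 were higher in members and none was lower. At least 2 of Ccl2, Ccl3 and Ccl4 were found in 176 members, 148 of them with more C1q than Mpo, so that these chemokines did not come from a handful of cells. The strongest single cell held 4.2% of the UMIs of Ccl3 and 9.8% of those of Ccl4. Tgfb1 stood at 95.4 to 214 CPM. Il1b stood at 9.42 to 134 CPM and Tnf at 5.86 to 14.6 CPM, while Il6 and Il10 had at most 2.6 CPM. Receptors for chemoattractants were higher in 5 of 6 cases, with C3ar1, the receptor of complement C3a, at 45.8 to 113 CPM and the chemokine receptor Ccr1 at 10.82 to 63.0 CPM. Of 12 genes that act with the adaptors Tyrobp and Fcer1g all 12 were higher, such as the kinase Lyn (101 to 179 CPM), the phosphatase Ptpn6 (97.5 to 151 CPM) and the inhibitory receptor Sirpa (90.2 to 161 CPM). On the X chromosome, the kinase Btk stood at 43.1 to 83.0 CPM and was not tested.

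Genes known from microglia, the macrophages of the brain, were mixed. Of 9 tested, 6 were higher and 3 lower. Fcrls stood at 36.8 to 117 CPM against at most 0.04 CPM in other cells and P2ry12, a purine receptor, at 6.28 to 15.7 CPM. Tmem119, Sall1 and Olfml3 were lower in members, where the other cells held 33.2 to 51.7, 11.1 to 26.3 and 7.13 to 16.2 CPM of them. Gpr34, on the X chromosome, stood at 10.2 to 35.8 CPM and was not tested. Of 5 monocyte genes tested 4 were higher, led by Plac8 (183 to 441 CPM) and F13a1 (89.7 to 176 CPM), and Fn1 was lower. Ly6c2, typical of monocytes, stood at no more than 10.74 CPM. Antigen presentation genes were higher in 8 of 8 cases, with a median of 4.03. The MHC class I genes B2m (253 to 605 CPM), H2-D1 (83.9 to 358 CPM) and H2-K1 (46.4 to 193 CPM) were spread over the libraries, with the highest value of each in E1C5 replicate 1. Granule genes passed the filter on low counts in 4 of 12 cases, and Prtn3 was at the highest level of them, at 117 to 616 CPM.

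The ligands of myeloid receptors were mainly transcripts of the other cells. Of 5 tested, 3 were lower in members and none was higher. Ptn was at 896 to 1359 CPM in other cells and at 23.3 to 471 CPM in members, and Cxcl12 at 21.4 to 30.7 against 1.35 to 7.9 CPM. The ligands of Csf1r were low in both, Csf1 with 1.49 to 3.25 CPM and Il34 with at most 0.04 CPM in the other cells. Proliferation genes did not set the members apart in a single direction: of 16 genes 7 were higher and 4 lower, with a median of 0.00 on the log2 scale. Mki67 stood at 260.3 to 427 CPM in members and 172 to 322 CPM in other cells, and Top2a at 398 to 556 and 506 to 733 CPM. The immediate early genes Fos (242 to 628 against 67.6 to 171 CPM) and Dusp1 (89.6 to 257 against 23.1 to 40.7 CPM), which dissociation is known to induce, were among the 8 of 10 stress genes that were higher.

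Transcripts of other lineages were present in the summed UMIs of members and moved between libraries. The 10 genes of limb mesenchyme summed to 82.6 and 266 CPM in the Wt libraries, to 584 and 800.5 CPM in E1C8 and to 276 and 614 CPM in E1C5, against 1672 to 2160 CPM in the other cells. Erythroid genes summed to 1623 to 12950.3 CPM, with the lowest sums in Wt replicate 2 and E1C5 replicate 1. Hba-a1 and Hba-a2 are nearly identical and so are Hbb-bs and Hbb-bt, so that their UMIs cannot be assigned with certainty. Endothelial genes summed to 77.8 to 124 CPM, of which Egfl7 alone gave 48.6 to 80.8 CPM. Cdh5, Kdr and Cldn5 reached at most 8.51, 11.9 and 1.7 CPM. Egfl7 and Tie1 belong to the same endothelial markers as these genes and were higher in members than in other cells. Megakaryocyte genes summed to 4.06 to 36.3 CPM, highest in Wt replicate 1, and Gp6 was at 0 in all 6 libraries. Of the 10 lymphoid genes 6 were at 0 throughout, with Cd3e, Cd3g, Rag1, Ncr1 and Gzma among them, and Cd79b was the highest at 32.9 to 47.1 CPM. Ighm, outside this list, stood at 84.8 to 129 CPM. Against the other cells, limb mesenchyme genes were lower in 9 of 9 cases, ectoderm genes in 7 of 8, muscle progenitor genes in 4 of 5, erythroid genes in 8 of 11 and endothelial genes in 5 of 10, where Egfl7 and Tie1 were higher. Of 8 megakaryocyte genes 2 were higher, with Itga2b among them, and 1 was lower, of 5 lymphoid genes 3 were higher and 1 lower, and of 3 mast cell genes 2 were higher (Gata2 and Hdc). For the comparisons of genotypes, limb mesenchyme, muscle and BMP genes were also counted without the 41 members with more than 10 UMIs of Prrx1, without called doublets and within the C1q class. The part of the other transcripts in the results was not tested.

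The members fell into a C1q and an Mpo class. A cell was put in the C1q class when C1qa, C1qb and C1qc together had more UMIs than Mpo, and in the Mpo class in the opposite case. This gave 268 cells (72.2%) and 82 cells (22.1%), with 21 cells in neither. The C1q class held a median of 35.5 C1q UMIs and 0 Mpo UMIs, and the Mpo class a median of 32 Mpo UMIs and 0 C1q UMIs. The classes are ranges rather than types: 57 cells lay within 2 UMIs of the cut, and 103 cells had UMIs of both. Cx3cr1 had a median of 10 UMIs in the C1q class and 2 in the Mpo class. The Mpo class was deeper, with a median of 50682.5 UMIs against 34504.

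**Figure D2:**
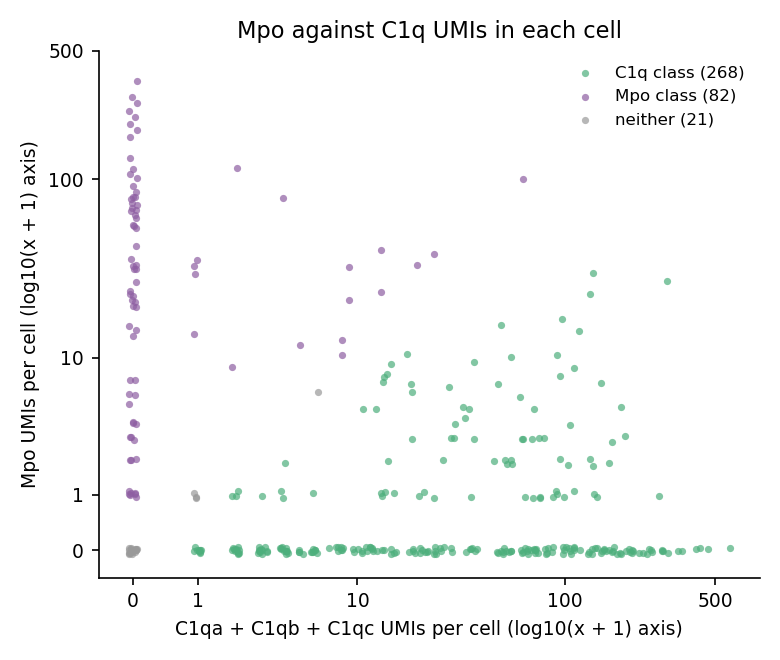
UMIs of Mpo against the summed UMIs of C1qa, C1qb and C1qc in each of the 371 cells, on log10(x + 1) axes with slight jitter and colours for the 268 cells of the C1q class, the 82 of the Mpo class and the 21 in neither. Most cells lie along an axis, and 103 cells with UMIs of both fill the space between.

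Genes outside the selection followed these classes. The 20 genes described here are those with the largest difference in the share of cells with a UMI, and were picked for that difference. Cells were also thinned to 5000 UMIs each, which left out 49 cells of the C1q class and 1 of the Mpo class, and CPM are given for the summed UMIs of a class. Prtn3 was found in 98.8% of the Mpo class and 39.9% of the C1q class (77.8% and 20.1% after thinning), with 870.4 and 66.3 CPM. The stem and progenitor genes Cd34 (124 against 23.7 CPM) and Myb (119 against 11.8 CPM) went the same way. Rgs18, a regulator of G protein signalling in blood cells, stood at 101 against 21.0 CPM, and Hp (haptoglobin) at 183 against 26.5 CPM. Tuba4a, Ramp1, Serpinb1a, Rasgrp2 and Fgl2 completed this side. In the opposite direction, Dab2, an adaptor of endocytosis, stood at 613 CPM in the C1q class and 16.0 CPM in the Mpo class and was found in 76.7% and 7.4% of thinned cells. Mrc1 stood at 403 against 4.0 CPM, Fcrls at 116 against 2.0 CPM, C3ar1 at 116 against 5.9 CPM and Adgre1 at 63.2 against 4.4 CPM. Gas6, a ligand of Mertk, was found in 37.3% of the C1q class and 1.2% of the Mpo class. Rnase4, Tmem8, Ms4a6b and Pf4 also belonged to this side. Each of the 20 genes kept its direction in all 6 libraries and after thinning. Since they were picked on these same cells, this was largely set by the choice and is a description.

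**Figure D3:**
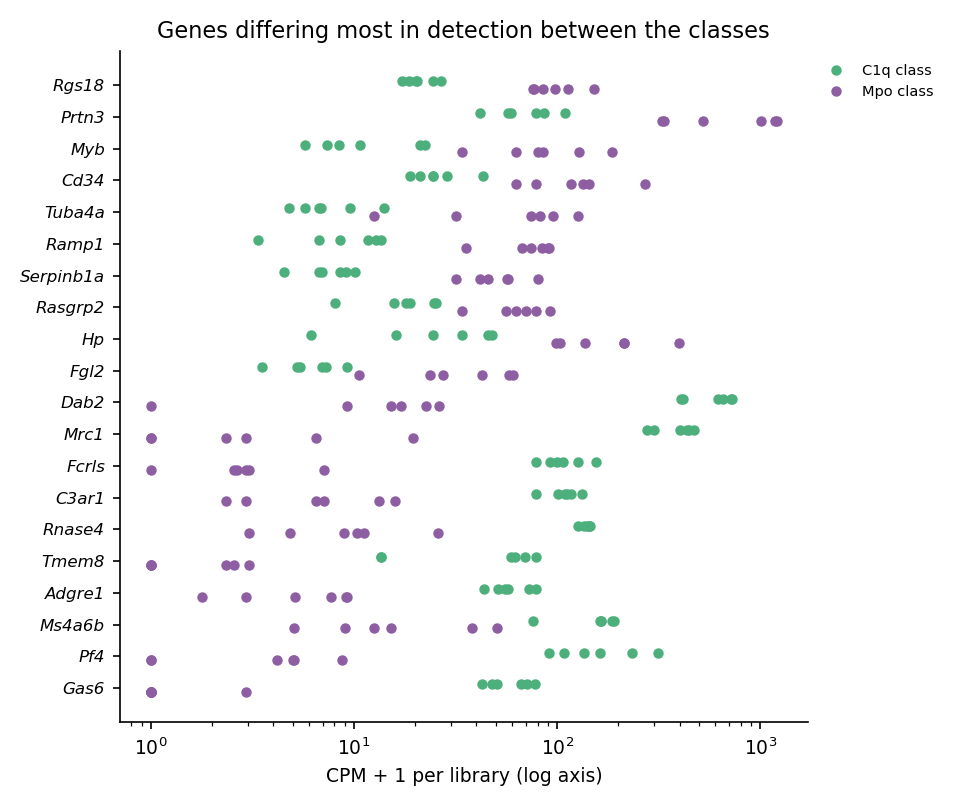
CPM + 1 of the 20 genes on a log axis, each dot the summed UMIs of a class in a library (C1q class green, Mpo class purple, 6 libraries). The 10 upper genes lie higher in the Mpo class and the 10 lower ones in the C1q class, in every library.

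Smaller groups of members shared UMIs of a few genes. At least 3 of the MHC class II genes Cd74, H2-Aa, H2-Ab1 and H2-Eb1, which present antigens, were found in 7 members, of which 6 came from E1C5 replicate 1 and 1 from Wt replicate 1. No more than 4 members held 50 or more UMIs of these genes, and they carried 89.7% of the UMIs. In the sums over members, Cd74 was therefore at 513 CPM in E1C5 replicate 1 and at 6.76 to 38.1 CPM in the other 5 libraries, and a single cell gave 39.7% of all its UMIs. S100a8 and S100a9, genes of neutrophils and monocytes, were found together in 5 members, of which 4 belonged to neither class, and 3 members carried 94.6% of their UMIs. At least 3 of the granule genes Mpo, Elane, Prtn3, Ctsg and Ms4a3 were found in 27 members, 24 of them of the Mpo class. Wt replicates 1 to 3 gave 8, 4 and 1 of these, E1C8 replicates 1 to 3 gave 0, 4 and 7 and E1C5 replicates 1 to 3 gave 1, 2 and 0. Mpo was counted here and also sets the class, which in part fixed the share of the Mpo class. At least 2 of the other 4 granule genes were found in 27 members, 24 of the Mpo class and 3 of the C1q class. Kit and Gata2, genes of blood progenitors and mast cells, had 173 and 222 UMIs in the Mpo class and 17 and 5 in the C1q class. Of genes more particular to mast cells and basophils, Hdc had 88 and Cpa3 50 UMIs in the Mpo class, Ms4a2 had 3, and Fcer1a, Cma1 and Mcpt8 had 0 in both classes. These groups were chosen after the values had been seen. The later granule genes Ltf, Camp and Fcnb had no UMI in any of the 6 libraries.

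Whether the Grem1 deletions went along with a different share of macrophages and myeloid cells was compared over libraries. In Wt libraries 1 to 3 the members made up 0.528% (exact binomial 95% interval 0.392 to 0.696%), 0.487% (0.381 to 0.614%) and 0.489% (0.224 to 0.926%) of the cells. In E1C8 they made up 0.0871% (0.0022 to 0.484%), 0.749% (0.601 to 0.922%) and 0.349% (0.263 to 0.454%). In E1C5 they made up 0.435% (0.32 to 0.578%), 0.24% (0.11 to 0.455%) and 0.291% (0.209 to 0.395%). These intervals cover counting error only. All 3 E1C5 libraries lay below all 3 Wt libraries, while E1C8 libraries lay both above and below them. The mean share was 0.359% ± 0.224 (SD, n = 6) in the mutants and 0.501% ± 0.0232 (SD, n = 3) in Wt, a difference of −0.143 percentage points (two-sided exact permutation test, p = 0.357, with 0.0119 the smallest p possible). E1C5 averaged 0.322% ± 0.101 (SD, n = 3; exact permutation p = 0.1, the smallest that 3 against 3 libraries allow) and E1C8 0.395% ± 0.333 (SD, n = 3; exact permutation p = 0.7). With the 3 p-values adjusted together by Benjamini-Hochberg, none passed 0.05. Without E1C8 replicate 2 the difference between mutants and Wt was −0.221 points (exact permutation p = 0.0357), and without E1C8 replicate 1, the library with 1 member, it was −0.0885 points (exact permutation p = 0.536) and that for E1C8 turned to 0.0478 points (exact permutation p = 0.8). Among cells with more than 2500 genes, the threshold of the study, the difference between mutants and Wt was −0.259 points (exact permutation p = 0.0833). For E1C8 alone it was −0.324 points (exact permutation p = 0.1). For E1C5 it was −0.193 points (exact permutation p = 0.3), so its libraries no longer all lay below those of Wt. With at least 3 selecting genes required, the E1C5 difference was −0.162 points (exact permutation p = 0.3). Without called doublets it was −0.123 points (exact permutation p = 0.2). With at least 5 selecting genes required, or without members with more than 10 UMIs of Prrx1, the exact permutation p for E1C5 stayed at 0.1.

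**Figure D4:**
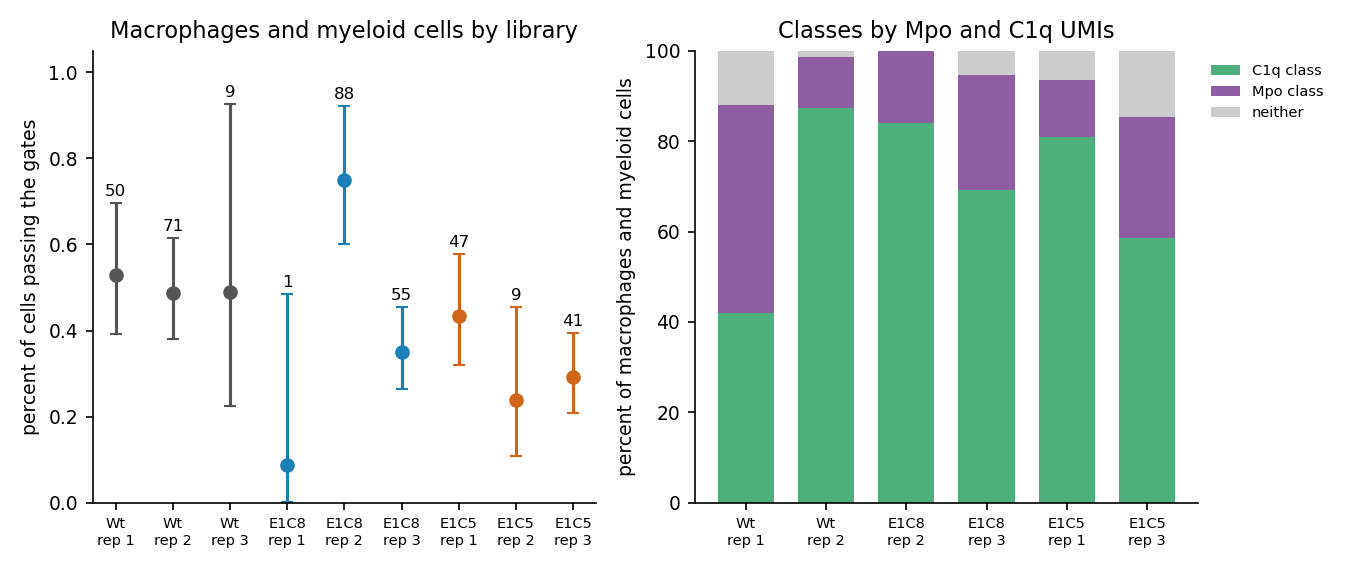
Left, macrophages and myeloid cells as a percent of the cells passing the gates in each of 9 libraries, with exact binomial 95% intervals and the number of such cells above each. Right, their division into the C1q class, the Mpo class and neither in 6 libraries, leaving out those with fewer than 10. The Mpo class was largest in Wt replicate 1, at 46.0%.

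The Mpo class made up 46.0% and 11.3% of the members in the Wt libraries, 15.9% and 25.5% in E1C8 and 12.8% and 26.8% in E1C5. The mean was 20.2% ± 6.96 (SD, n = 4) in mutants and 28.6% ± 24.6 (SD, n = 2) in Wt, and the groups overlapped (two-sided exact permutation test, p = 0.533, with 0.0667 the smallest possible). Wt replicate 1 decided the direction, since the difference of −8.39 percentage points became 8.97 without it. With a minimum of 5 members per library, which added Wt replicate 3 at 22.2% and E1C5 replicate 2 at 44.4%, the difference was −1.42 points (exact permutation p = 0.929). Of the 6 libraries compared for expression, Wt replicate 1 also held the highest sums of megakaryocyte and mast cell genes.

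Grem1, the gene whose enhancers were deleted, was lower in the other cells of the mutant libraries, at 10.4 to 22.7 CPM against 25.9 to 31.6 CPM in Wt. In the members it gave few UMIs, 34, 18 and 0 in the Wt libraries, 0, 1 and 5 in E1C8 and 4, 9 and 16 in E1C5, found in 32 cells in all. In Wt replicate 1 a single cell gave 31 of the 34 UMIs. Grem1 was present in 8.63% of members, 17.3% of other cells and 8.01% of endothelial cells. Of the 15 BMP pathway genes, 14 were lower in members than in other cells and none was higher, with a median log2 fold change of −1.50. Id1 stood at 46.8 to 138 CPM against 231 to 389 CPM, Id2 at 27.3 to 152 against 163 to 297 CPM, and Smad4 at 32.3 to 59.1 against 98.8 to 122 CPM. The receptor Bmpr2 stood at 24.96 to 38.8 against 35.5 to 57.5 CPM.

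No gene passed an adjusted p of 0.05 in members between genotypes in edgeR's quasi-likelihood test, which covered 9941 genes in 6 libraries: 0 genes (0%) for both mutants together, 0 (0%) for E1C8 and 0 (0%) for E1C5, each against Wt. At an unadjusted p under 0.05, 624, 1037 and 284 genes differed, and DESeq2 called 12, 26 and 2 genes. With 2 libraries per genotype, the median standard error of a log2 fold change was 0.25, 0.29 and 0.29. In counts simulated for the mutants against Wt over 9941 genes, 92% of 200 genes changed by 2 on the log2 scale were recovered with 18 false calls, and 10.5% of 200 genes changed by 1 with 10 false calls. Most changes of 1 on the log2 scale were thus not recovered with these libraries. The main edgeR fit used all members of the 6 libraries, the filter on low counts and no covariate. The genes described next are those with the smallest unadjusted p, and none of them passed the correction in that fit. DESeq2 called several of them, with adjusted p-values of 0.000226 for Msx1, 0.00238 for Ccnd1 and 0.00459 for Ifi204 in the mutants, 6.38e-11 for Gm11361 in E1C8 and 0.000414 for Lyve1 in E1C5. Of the 18 pairs of a gene and a comparison, 13 passed with DESeq2 and 18 passed in edgeR without the filter on low counts. That edgeR fit gave smallest adjusted p-values of 1.1e-49, 8.6e-43 and 2.8e-63 for the mutants, E1C8 and E1C5. With the filter edgeR gave 0.211, 0.0611 and 0.333. Values so small from 6 libraries were not relied on. In edgeR, S100a8 in E1C5 also passed with a replicate block (adjusted p = 0.00656), a fit with nearly as many terms as libraries. Gm11361, Msx1 and Pax3 in E1C8 passed in edgeR with a minimum of 5 members per library (adjusted p = 0.0083, 0.0292 and 0.0292). Gm11361 in E1C8 passed too within the C1q class (adjusted p = 0.0323) and without the members with more than 10 UMIs of Prrx1 (adjusted p = 0.025).

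Ifi204, a gene of the interferon-induced family with close copies, had the smallest p for the mutants. It stood at 39.9 and 36.4 CPM in members of the Wt libraries, at 12.1 and 13.05 CPM in E1C8 and at 10.745 and 11.3 CPM in E1C5. Every mutant library lay below both Wt libraries, and the other cells held at most 0.03 CPM. The log2 fold change was −1.73 ± 0.19 (SE; edgeR adjusted p = 0.211). The gene was found in 110 members, and 1 cell gave 13.9% of its UMIs. That cell came from Wt replicate 1 and held 43 of the 89 UMIs of that library, so the Wt level rested in part on it. Ccnd1, which encodes cyclin D1, went the other way, with 28.3 and 38.9 CPM in Wt, 82.7 and 76.6 CPM in E1C8 and 96.3 and 96.0 CPM in E1C5 (log2 fold change 1.33 ± 0.20, SE; edgeR adjusted p = 0.598). In the other cells Ccnd1 stood at 194 to 222 CPM in all 6 libraries. Without the 41 members with more than 10 UMIs of Prrx1 it stood at 21.0 and 24.8 CPM in Wt, 50.6 and 28.5 CPM in E1C8 and 87.5 and 74.9 CPM in E1C5, and the log2 fold change was 1.30 for the mutants, 0.81 for E1C8 and 1.79 for E1C5.

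Several of the leading genes were transcripts of the limb mesenchyme or of muscle progenitors. Msx1, a homeobox gene and BMP target of limb mesenchyme, stood at 4.94 and 12.2 CPM in Wt members, 54.8 and 69.2 CPM in E1C8 and 26.2 and 45.5 CPM in E1C5 (mutants against Wt, log2 fold change 2.34 ± 0.39, SE). Pax3, a gene of migrating muscle progenitors, stood at 1.35 and 0.627 CPM in Wt, 26.3 and 21.0 CPM in E1C8 and 3.01 and 1.35 CPM in E1C5. It was found in 21 members, and 1 cell gave 31 of its 102 UMIs. Prrx1, on which the selection set a limit, moved the same way, with 22.9 and 74.9 CPM in Wt, 153 and 231 CPM in E1C8 and 64.5 and 160.5 CPM in E1C5. It was left out of the count of limb mesenchyme genes after its values were seen. Of the other 9 genes, 5 had an unadjusted p under 0.05 for the mutants, all higher, with a median of 1.53 against −0.02 for all genes, where 388 of 9941 genes were higher at that level. Without the 41 members with more than 10 UMIs of Prrx1, a choice of cells made on a mesenchyme transcript itself, this was 2 of 8 genes with a median of 0.83 for the mutants, 4 of 8 with a median of 1.42 for E1C8 and 0 of 8 with a median of 0.15 for E1C5. Msx1 then stood at 2.33 and 8.25 CPM in Wt, 31.0 and 11.4 CPM in E1C8 and 5.41 and 7.49 CPM in E1C5. With called doublets removed, which took 36 of 55 members of E1C8 replicate 3 and 16 of 50 of Wt replicate 1, 7 of 9 genes had such a p for the mutants, with a median of 1.84, and within the C1q class 0 of 9 did, with a median of 1.079. Of 13 BMP pathway genes tested in E1C8, 6 were higher and 1 lower at an unadjusted p under 0.05, where 590 and 447 of 9941 genes were, and within the C1q class 1 of 11 was higher and 1 lower. With called doublets removed 4 of 11 were higher and 0 lower, and without the members with more than 10 UMIs of Prrx1 2 of 10 were higher and 1 lower. Of 3 muscle progenitor genes tested in E1C8, 2 were higher at that level, as within the C1q class, and in the other 2 settings 1 gene could be tested and did not pass. In E1C8 members Id2 stood at 152 and 107 CPM against 46.2 and 27.3 CPM in Wt, and Id3 at 149 and 105.5 CPM against 45.3 and 57.4 CPM. Within the C1q class the genotypes overlapped, with Id2 at 154 and 61.3 CPM in E1C8 against 69.0 and 31.5 CPM in Wt, and Id3 at 161 and 70.8 CPM against 100.3 and 63.0 CPM.

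Other leading genes differed between genotypes in the rest of the limb bud as they did in members. Gm11361, annotated as protein-coding, stood at 221 and 210.5 CPM in members of E1C8 and at 49.0 to 65.4 CPM in members of the other 4 libraries (E1C8 against Wt, log2 fold change 1.96 ± 0.18, SE; edgeR adjusted p = 0.0611). In the other cells it stood at 189 and 188 CPM in E1C8 and at 45.6 to 60.2 CPM in the rest. Hmga1, a chromatin protein, stood at 81.2 and 76.8 CPM in Wt members and 21.6 and 27.2 CPM in E1C8, with 69.0 and 84.5 against 21.4 and 29.96 CPM in the other cells. Eif3j2, which has a close copy in Eif3j1, and Tmem14c, a mitochondrial protein of heme synthesis, behaved likewise: Tmem14c stood at 243 and 303 CPM in Wt members and 109 and 89.6 CPM in E1C8, and at 213 and 182 against 89.5 and 82.0 CPM in the other cells. Whether the differences were of equal size in members and other cells was not tested.

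In E1C5 members, Lyve1, a hyaluronan receptor of some tissue macrophages, stood at 47.3 and 68.1 CPM, against 8.97 and 5.64 CPM in Wt and 14.8 and 5.11 CPM in E1C8 (E1C5 against Wt, log2 fold change 2.94 ± 0.42, SE; edgeR adjusted p = 0.339). The other cells held at most 0.11 CPM. Both E1C5 libraries lay above the other 4, and the UMIs came from 34 members, 9 each in the 2 E1C5 libraries. S100a8 stood at 143 and 62.7 CPM in E1C5 and at 0 to 3.69 CPM elsewhere, but its UMIs came from 10 members and 1 cell gave 66.3% of them. Ltb, a cytokine of the lymphotoxin family, stood at 3.01 and 2.71 CPM in E1C5, 19.7 and 14.4 CPM in Wt and 17.4 and 21.0 CPM in E1C8. Lbp, which binds lipopolysaccharide, stood at 2.58 and 2.25 CPM in E1C5, 2.11 and 7.94 CPM in E1C8 and 20.2 and 19.1 CPM in Wt. In the other cells Lbp was also higher in Wt, at 4.78 and 6.98 CPM against 0.99 to 1.75 CPM. By these transcripts both E1C5 libraries were female, and both Wt libraries were taken as male, although Wt replicate 1 held some Xist. In the fit with embryo sex as a covariate, only E1C8 held both sexes, so E1C8 replicates 2 and 3 alone set the sex term. Sex and genotype thus cannot be told apart for E1C5 against Wt. The log2 fold change for E1C5 in that fit was 1.43 instead of 2.94 for Lyve1 and −1.14 instead of −3.04 for Lbp. It was −2.31 instead of −2.59 for Ltb and −0.47 instead of 5.60 for S100a8, which had 7 and 0 UMIs in those E1C8 libraries.

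**Figure D5:**
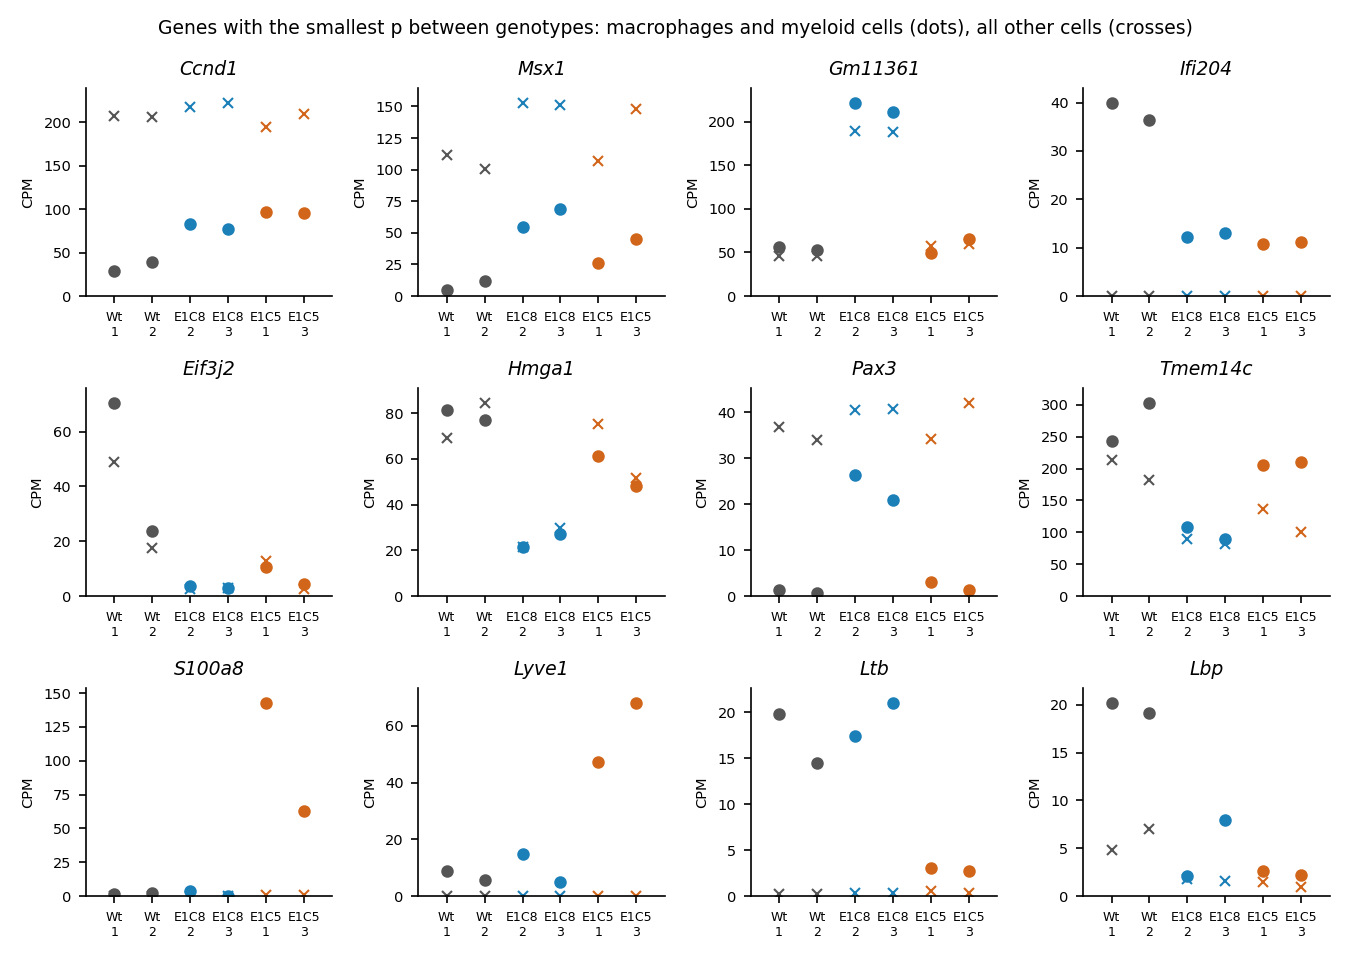
CPM of the 12 genes with the smallest unadjusted p between genotypes, in macrophages and myeloid cells (dots) and in all other cells (crosses) of each of 6 libraries, coloured by genotype. Dots and crosses move together for Gm11361, Hmga1 and Eif3j2, while Ifi204, Lyve1, S100a8 and Ltb are low in all other cells.

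The medians of the lists of myeloid genes are given as a description, since no list was tested as a whole between genotypes. None of their genes passed the correction in edgeR's test described above. For the mutants together, the leukocyte genes had a median log2 fold change of −0.23, the surface receptors of macrophages −0.01, the lysosomal genes 0.11 and the cytokines and chemokines 0.27, against −0.02 over all genes tested. At an unadjusted p under 0.05, 0 of 15 leukocyte genes, 0 of 15 surface receptors, 1 of 16 lysosomal genes, 1 of 16 cytokines and chemokines and 0 of 16 proliferation genes differed, where 624 of 9941 genes did so in all. In E1C8 alone, 1 of 14 myeloid transcription factors was higher at that level, where 590 of 9941 genes were. Another 5 of these 14 and 4 of 15 leukocyte genes were lower, where 447 of 9941 genes were. The medians of the leukocyte and transcription factor lists were −0.38 and −0.44. Irf8, for example, stood at 109 and 98.7 CPM in E1C8, 141 and 166 CPM in Wt and 135 and 154 CPM in E1C5, and Lcp1 at 268 and 189 CPM in E1C8 against 307 to 355 CPM in the other 4 libraries. Limb mesenchyme transcripts summed to 584 and 800.5 CPM in these libraries, against 82.6 and 266 CPM in Wt, and their part in these values was not tested. In E1C5, all 5 granule genes tested had an unadjusted p under 0.05, 2 higher and 3 lower, where 179 and 105 of 9941 genes were. Of the 12 genes on this list only these 5 passed the filter on low counts, which S100a8 did only through E1C5. S100a8, S100a9 and Elane were found in 10, 5 and 22 members, and 1 cell gave 66.3%, 58.3% and 15.7% of their UMIs. The count is therefore not read as a change of the list. Elane stood at 0 CPM in both E1C5 libraries, 13.9 and 1.57 CPM in Wt and 20.6 and 28.4 CPM in E1C8, and Prtn3 at 117 and 122 CPM in E1C5, 616 and 145 CPM in Wt and 355 and 555 CPM in E1C8, while S100a8 and S100a9 were higher in E1C5. Microglia-associated genes had medians of 0.50 in the mutants and 0.73 in E1C5, where 3 of 8 had an unadjusted p under 0.05, all higher, beside 179 of 9941 genes that were higher at that level. This list includes Tmem119, Sall1 and Olfml3, which were higher in the other cells than in members. Within the C1q class Tmem119 stood at 5.02 and 11.5 CPM in Wt and at 33.0 and 19.9 CPM in E1C5. Fcrls overlapped there, at 99.1 and 125 CPM in Wt and 155 and 77.4 CPM in E1C5. The part of transcripts of other cells in these values was not tested. Uptake genes had medians of −0.63 in E1C8, with 3 of 13 lower beside 447 of 9941 genes, and 0.66 in E1C5, with 2 of 13 higher beside the same 179. Lyve1 was among those of E1C5. Granule genes had medians of −0.71 in the mutants and −1.69 in E1C5. Antigen presentation genes had medians of −0.84 in E1C8 and 0.90 in E1C5, beside the cells with MHC class II UMIs in E1C5 replicate 1. The E1C5 libraries went opposite ways: the list summed to 2397 CPM in E1C5 replicate 1 and to 405 CPM in E1C5 replicate 3. It summed to 531 and 674 CPM in Wt and to 558 and 557 CPM in E1C8.

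The members were also set beside the parts of the limb bud most like them. Against 1286 endothelial cells, which line vessels and were chosen by at least 4 of 9 markers of their own, 2827 of 10294 genes were higher in members (27.5%) and 3053 lower (29.7%). These counts, too, come from cells chosen on their transcripts and are a description. The 15 surface receptors of macrophages were all higher (median log2 fold change 8.64). The 10 endothelial genes were all lower (−6.06), of which 9 chose the endothelial cells, so that this was fixed by the choice. For some genes of macrophages the ranges overlapped. Stab1 stood at 56.2 to 132 CPM in members and 47.8 to 86.7 CPM in endothelial cells (0.33 ± 0.19, SE), Elmo1, which acts in the uptake of dying cells, at 28.9 to 45.8 and 28.2 to 49.5 CPM (0.03 ± 0.13, SE) and Tgfb1 at 95.4 to 214 and 102 to 259 CPM (−0.05 ± 0.09, SE). Of the proliferation genes 11 of 16 were higher in members than in endothelial cells.

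Against 126 cells of the megakaryocyte lineage, which gives rise to platelets and was chosen by at least 3 of 8 markers, 1611 of 9143 genes were higher in members (17.6%) and 1551 lower (17%), in the 5 libraries with at least 10 cells of both. Of these 126 cells, 52 met the rule for endothelial cells as well. The 8 megakaryocyte genes that chose those cells were all lower (median −8.28), which the choice fixed, and so was the platelet chemokine Pf4 (−7.08 ± 0.41, SE), which the C1q class expressed at 179.5 CPM. The leukocyte list divided, with 11 of 15 genes higher and 2 lower, namely Plek (−2.26 ± 0.10, SE) and Fermt3 (−2.02 ± 0.08, SE), genes that platelets use. Runx1 (0.34 ± 0.24, SE) and Srgn (0.28 ± 0.38, SE) did not pass the test. Csf1r (11.14 ± 0.33, SE) and Maf (6.79 ± 0.26, SE) lay far higher in the members.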

How the data were processed

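Single-cell RNA-seq counts of 9 libraries were analysed. The authors deposited counts, the UMIs of each of 32289 features per barcode called as a cell, made with Cell Ranger 6.0.1 against mm10, per the labels, without normalization and before their own filter on cells. Members and gene lists were chosen with earlier results of these data known.

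Cells were gated at over 1000 genes, under 200000 UMIs and under 10% mitochondrial UMIs. Doublets were called per library from artificial doublets with an assumed rate of 0.8% per 1000 barcodes; 17.8% of members and 14.8% of other cells were called, and removing them served as an alternative. UMIs were summed per library, filtered with filterByExpr, scaled by TMM and fitted with edgeR 4.0.16 (R 4.3.3) by quasi-likelihood, with Benjamini-Hochberg adjustment over all genes tested. The 3 genotypes shared 1 fit. The 1809 genes on X or Y, mitochondrial genes and 4 transgene rows were left out, and the selecting genes and Prrx1 were also left out of contrasts between cells. P-values measure the spread between libraries. DESeq2 1.42.0 served as an alternative. Shares were tested by exact permutation, two-sided, over libraries (Python 3.11.15, numpy 2.4.6). CPM were computed from the summed UMIs. Total UMIs per library and intervals are given with the results, and intervals cover counting error only. Fits were tested on simulated data. Genes on the lists were counted, and those named had the highest mean CPM in members or were needed to describe a list and chosen after their values were seen. Genotype genes were the 3 per direction with the smallest p. Against other cells, the 20 genes with the largest fold change and a mean of at least 100 CPM were named. Gene positions came from GENCODE M21 and promoters from RefSeq (GRCm38.p6). Some genes of the lists are not reported here by name.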

Additional observations from a re-analysis of the deposited data

Results flagged for a closer look

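Outside the gates on quality, 30 barcodes met the same rule on the 9 myeloid genes and Prrx1. They entered no comparison. Of these, 22 held no more than 1000 genes and 8 held at least 10% mitochondrial UMIs. E1C8 replicates 2 and 3 gave 10 and 11 of them, Wt replicates 1 to 3 gave 3, 2 and 0, E1C8 replicate 1 gave 0 and E1C5 replicates 1 to 3 gave 1, 1 and 2. Wt libraries held such barcodes as well, and the counts were not compared between genotypes.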

How the results depend on the processing

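The difference in the share of members between mutants and Wt ranged from −0.221 to −0.0885 percentage points when each library was left out in turn, and passed 0.05 without E1C8 replicate 2 (−0.221, exact permutation p = 0.0357). For E1C8 the range was −0.283 to 0.0478, and the direction turned without E1C8 replicate 1. For E1C5 it was −0.236 to −0.138. The difference in the Mpo class ranged from −25.8 to 8.97 percentage points and turned without Wt replicate 1; with a minimum of 5 members it was −1.42.

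For expression in mutants, E1C8 and E1C5 against Wt, the 0 calls became 12, 26 and 2 with DESeq2. They became 292, 439 and 202 without a filter on low counts, a fit whose very small p-values were not relied on. Leaving out each library gave 0 to 1, 0 to 2 and 0 to 20 calls. The 20 calls for E1C5 came without E1C5 replicate 3, which leaves E1C5 replicate 1, the library with the MHC class II cells, alone in its group and assumed to vary like the others; H2-Aa, H2-Eb1, Cd74 and S100a8 were among them. Chosen after seeing the data, a minimum of 5 members per library gave 3 calls for E1C8, C1q-class members gave 1 and leaving out members with over 10 UMIs of Prrx1 gave 1. Embryo sex as a covariate, a term that only the E1C8 libraries could set, gave no calls, and 210, 500 and 95 genes at an unadjusted p under 0.05. The cause of these changes was not tested.

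Of the replicate numbers, 3 pairs had both libraries in the comparisons of expression, with correlations of −0.218, 0.124 and 0.104 over 3162 genes. With 2 libraries per genotype, each correlation recurs with the opposite sign between libraries of unlike number. The correlations therefore cannot show whether libraries of the same number were pairs. The main tests did not take them as pairs. With a replicate block, the exact permutation p for the share was 0.407 for mutants, 0.75 for E1C8 and 0.25 for E1C5. In edgeR E1C5 then had 5 calls, S100a8, S100a9, H2-Aa, H2-Ab1 and Retnlg, from a fit with nearly as many terms as libraries. With embryo sex as a covariate, set by the E1C8 libraries alone, S100a8 in E1C5 turned to −0.47.

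Against other cells 8319 to 8733 genes were called when each library was left out, against endothelial cells 5162 to 5976 and against megakaryocyte lineage cells 2429 to 2929, where DESeq2 gave 1966 and edgeR 3162. Cd79a (0.049) ranged from −0.27 to 0.415 when each library was left out, Flt1 turned to −0.014 and Pecam1 to −0.016 without called doublets, and Pcna (−0.16) ranged from −0.177 to 0.011. Each library held at most 88 members, and whether the number of members or of libraries limits the genotype comparisons was not tested.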
